A study of Mus musculus with 24 samples.

Results

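The genes described here encode the proteins of the mitochondrial ribosome. They were taken as every row of the count table whose symbol begins with Mrpl (large subunit) or Mrps (small subunit) followed by a digit, which gave 47 of 18470 rows. Of these, 44 were gene rows, 28 for the large and 16 for the small subunit. The other 3 were pseudogene rows (Mrpl27-ps, Mrps36-ps1 and Mrps36-ps2), which held 0, 1 and 1 counts over all libraries and did not pass the filter on low counts. Each of the 44 gene rows passed it, so "members" below means these 44. Some genes of the family are not analysed here, among them Mrps12, Mrps18a, Mrps18b and Mrpl58.

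Bulk RNA sequencing was done on sorted memory B cells, named csMBC by the labels, of mice sensitised through the nose with house dust mite extract and given the same allergen again 6 weeks later. The cells were sorted as CCR6+CD69+ or CCR6-CD69- from lung, or as circulating, which gave 3 populations; the circulating libraries also carry lung as their tissue label. Each came from WT mice (SCAP +/+ hCD20-TamCre) and from mice labelled SCAP cKO (SCAP fl/fl hCD20-TamCre), so controls and cKO alike carried the tamoxifen-inducible Cre driven from the human CD20 gene, and the series' design text places the deletion of Scap ahead of the recall challenge. SCAP carries SREBP precursors to the Golgi for activation, and active SREBPs drive genes of lipid synthesis. The 6 groups held 4 libraries each, and replicates 1 and 2 of every group were batch 1 while replicates 3 and 4 were batch 2, as the labels give it. The labels do not say whether replicates were separate mice, so p-values measure the spread between these samples, which may be technical.

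Mitochondria carry their own ribosomes, which translate the few proteins encoded in mitochondrial DNA, all of them core subunits of the respiratory chain and the ATP synthase. Their ribosomal RNAs are made inside the organelle, whereas all of their proteins are encoded in the nucleus, translated in the cytosol and imported. Many nuclear genes of mitochondria have promoters with sites for the transcription factors NRF1, the ETS factor GABP, and YY1, and activated B cells are known to raise mitochondrial protein synthesis.

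Promoters of the members were searched for letters of NRF1, ETS and YY1 sites, which some members held and others did not. RefSeq promoter windows (GRCm38.p6, from 250 bases before to 50 bases after the start) were matched by symbol for 38 of the 47 rows and searched on both strands. NRF1 letters (GCGCA, any base, then GCGC) stood in windows of 11 members (28.9%), against 12.0% of the tested genes with a window and 5.19% of all genes in the promoter table. ETS letters (CCGGAAG) stood in those of 12 members (31.6%, against 22.7% and 9.93%), and YY1 letters (AAGATGGCG) in those of 2 (5.26%, against 3.83% and 1.64%). At least 1 of these motifs was present for 21 members (55.3%, against 34.4% and 15.1%). A promoter with several motifs was counted under each, and a match is a description of letters, not of a bound site. Of the 6 members that differed between batches below, 3 held the NRF1 letters before the start. They are printed here 5′ to 3′ along the gene's strand, with the NRF1 letters (or their reverse complement) in capitals. The Mrps21 stretch is GRCm38.p6 chr3:95871515-95871764 on the minus strand, that of Mrpl57 is chr14:57825989-57826238 on the plus strand, and that of Mrpl9 is chr3:94443086-94443335 on the plus strand. In Mrps21, Mrpl57 and Mrpl9 the first base of the NRF1 motif lay at -91, -57 and -28 relative to the first transcribed base. Of the same 6 members, ETS letters stood in the windows of Mrps21, Mrpl57 and Mrpl33, with first bases at 18, 4 and -3. These reach past the start and are not printed. Whether either motif bears on the batch difference was not tested.

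Mrps21: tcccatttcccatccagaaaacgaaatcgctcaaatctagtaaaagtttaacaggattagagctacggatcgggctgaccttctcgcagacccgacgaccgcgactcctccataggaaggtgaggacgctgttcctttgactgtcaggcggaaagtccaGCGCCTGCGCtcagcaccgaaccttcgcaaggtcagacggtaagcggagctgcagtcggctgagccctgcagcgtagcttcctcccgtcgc

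Mrpl57: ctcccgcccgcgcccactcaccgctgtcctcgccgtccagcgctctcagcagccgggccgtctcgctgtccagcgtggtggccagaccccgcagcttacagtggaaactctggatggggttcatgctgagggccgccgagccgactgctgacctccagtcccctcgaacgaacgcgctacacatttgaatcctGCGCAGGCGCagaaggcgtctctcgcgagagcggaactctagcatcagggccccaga

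Mrpl9: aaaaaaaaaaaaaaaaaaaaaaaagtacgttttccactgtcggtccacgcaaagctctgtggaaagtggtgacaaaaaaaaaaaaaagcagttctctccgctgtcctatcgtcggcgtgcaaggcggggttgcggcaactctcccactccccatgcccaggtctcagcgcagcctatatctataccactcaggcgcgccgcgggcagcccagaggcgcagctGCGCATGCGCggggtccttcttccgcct

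Total counts ran from 129025 to 8566243 per library. The limit that 3 counts set was 0.350 to 8.41 CPM (counts scaled to a library total of 1000000) in batch 1 and 0.873 to 23.3 CPM in batch 2. Replicate 4 of cKO lung CCR6-CD69- (129025 counts) and replicate 2 of WT circulating (356782 counts) were the shallowest. Chil3, a macrophage gene, took the most counts in WT lung CCR6-CD69- replicate 2 and cKO lung CCR6-CD69- replicate 1. In cKO lung CCR6-CD69- replicate 4 a ribosomal RNA row, Rn18s-rs5, did so. The B cell marker Ms4a1 (CD20) was present in all 24 libraries, at 387 to 1718 CPM. Scap ran from 0 to 203 CPM in the 12 WT libraries (median 121) and from 0 to 446 CPM in the 12 labelled cKO (median 127). The groups overlapped, with 1 library at 0 in each. Counts are for the whole gene and do not show whether the floxed exons were lost, so the cKO labels were not checked by them.

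Member transcripts were a small share of the RNA in every group, and the batches did not overlap in it. Summed member counts took 0.210 to 0.404% of the library total in the 12 libraries of batch 1 and 0.0597 to 0.171% in the 12 of batch 2. In WT lung CCR6+CD69+ the 4 libraries stood at 0.278, 0.239, 0.128 and 0.127% (replicates 1 to 4, 0.193% ± 0.0771, SD, n = 4). WT lung CCR6-CD69- had 0.284, 0.210, 0.131 and 0.137% (0.190% ± 0.0719), and WT circulating 0.299, 0.224, 0.152 and 0.171% (0.211% ± 0.0657). In each of these groups both batch 1 libraries were above both batch 2 libraries. Labelled cKO lung CCR6+CD69+ had 0.212, 0.222, 0.156 and 0.122% (0.178% ± 0.0473), and cKO lung CCR6-CD69- 0.267, 0.234, 0.139 and 0.0597% (0.175% ± 0.0939). In cKO circulating they were 0.404, 0.401, 0.147 and 0.106% (0.264% ± 0.160), so this group held the highest values of batch 1 but not of batch 2. Within batch 1 the means were 0.258% (WT) and 0.217% (cKO) for lung CCR6+CD69+, 0.247 and 0.250% for lung CCR6-CD69-, and 0.261 and 0.402% for circulating cells. Within batch 2, in the same order, they were 0.128 and 0.139%, 0.134 and 0.0993%, and 0.161 and 0.126%. With 2 libraries a group in each batch these are descriptions. The 95% Wilson interval was 0.0478 to 0.0746% for the lowest library, which rested on 77 member counts, and 0.395 to 0.413% for the highest; intervals and limits here cover counting error only. In bulk samples, fewer cells of a type and less RNA per cell cannot be told apart.

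**Figure D1:**
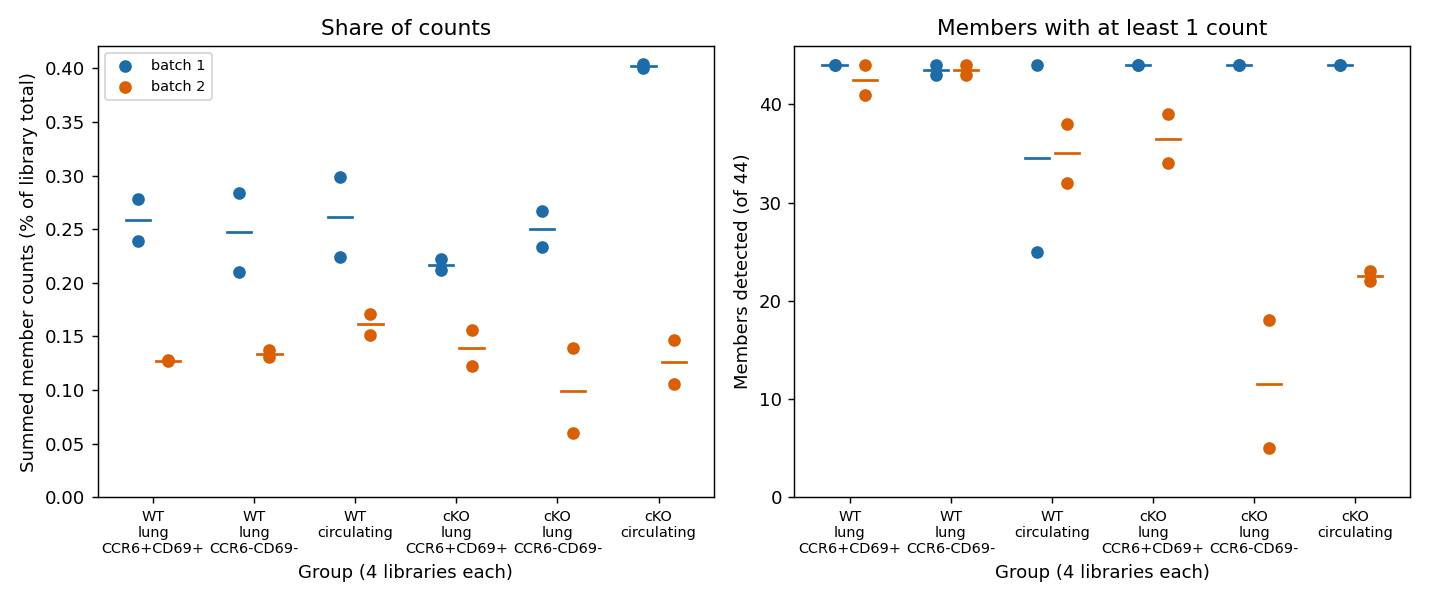
Left, summed counts of the 44 members as a percentage of the library total; right, number of members with at least 1 count; each point is a library (4 per group), coloured by batch, and short lines are the mean of the 2 libraries of a group in a batch. Batch 1 lies at 0.210 to 0.404% and batch 2 at 0.0597 to 0.171%, and fewer members were detected in batch 2 libraries labelled cKO (5 to 39) than in those of batch 1 labelled cKO (44 in each).

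Detection overlapped between the batches in WT libraries and was lower in batch 2 in the labelled cKO libraries. In batch 1 all 44 members had counts in 10 of the 12 libraries, the exceptions being WT lung CCR6-CD69- replicate 2 (43) and WT circulating replicate 2 (25), which holds 19 of the 20 zeros of that batch. In batch 2, 145 of 528 values were 0. WT libraries of batch 2 detected 41 and 44 members (lung CCR6+CD69+), 44 and 43 (lung CCR6-CD69-), and 38 and 32 (circulating). Those labelled cKO detected 34 and 39, 18 and 5, and 23 and 22. In all 6 cKO libraries of batch 2 the percentage of members detected was below that of all genes tested, for example 40.9% against 66.7% and 11.4% against 30.7% in lung CCR6-CD69-, and this was so in 2 of the 6 WT libraries of that batch. Only Mrpl24 and Mrpl30, both large subunit proteins with bacterial counterparts, were detected in all 24 libraries.

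**Figure D2:**
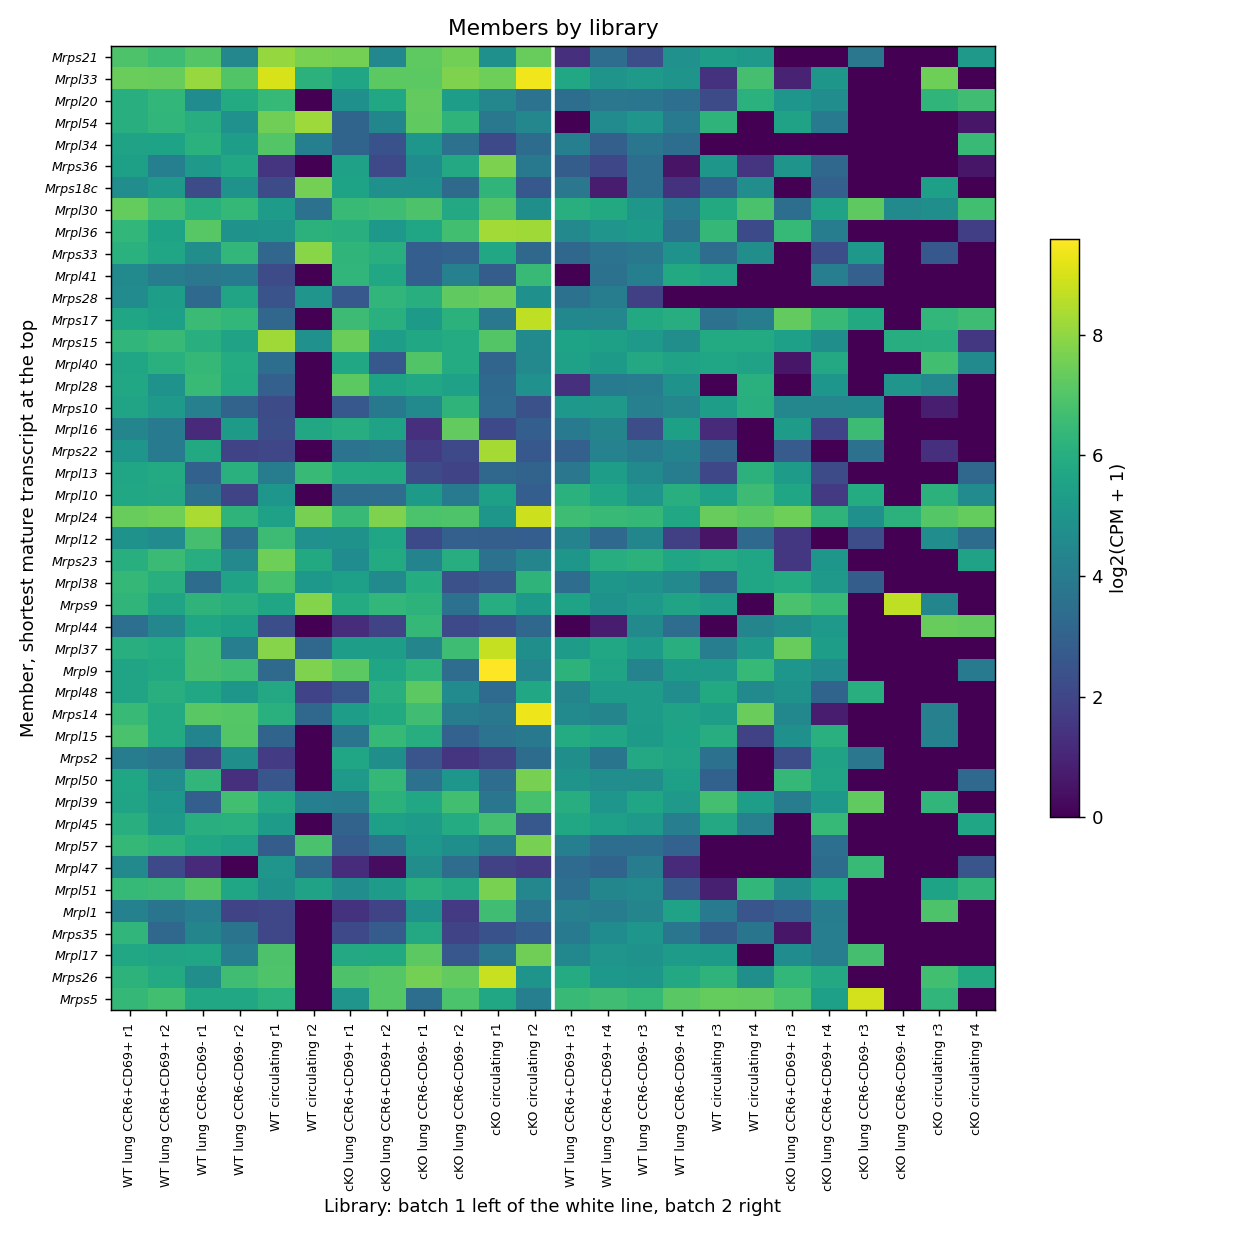
Level of each member (row, ordered from the shortest to the longest median mature transcript) in each library (column, batch 1 left of the white line and batch 2 right), as log2(CPM + 1) with 0 in the darkest colour. Zeros number 20 in batch 1 and 145 in batch 2, and those of batch 1 lie almost all in WT circulating replicate 2.

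Member levels per kilobase of median mature transcript, averaged over the 24 libraries, were led by Mrpl33 (278 CPM per kilobase), Mrps21 (162) and Mrpl24 (111), against a median of 26.6 over the members. Without regard to length, the large subunit members with the highest mean CPM were Mrpl24 (137), Mrpl33 (133) and Mrpl9 (81.8), and those of the small subunit Mrps5 (90.2), Mrps26 (84.1) and Mrps14 (72.7). Only Mrpl24 and Mrpl33 kept a place among the highest 3 of their subunit when the library in which they were highest was left out, at 123 and 109 CPM. Without theirs, Mrpl9 had 51.8, Mrps5 73.1, Mrps26 68.6 and Mrps14 47.6 CPM. Mrps5 and Mrps26 have long transcripts and ranked 28 and 30 of 44 per kilobase. The small subunit supplied 22.1 to 79.2% of member counts in a library. The leading member varied between replicates. In cKO lung CCR6-CD69- replicate 3, Mrps5 took 34.9% of the member counts, and in replicate 4 Mrps9 took 68.8%, at 485 and 411 CPM, while the other 3 libraries of the group had 9.91, 115 and 0 CPM of Mrps5 and 72.6, 11.4 and 0 CPM of Mrps9. In cKO circulating, whose batch 1 pair had the highest module shares, the leading 5 members took 56.0 and 62.1% of those counts, led by Mrpl9 in replicate 1 (771 CPM, against 20.9 in replicate 2) and by Mrpl33 in replicate 2 (669 CPM, against 177 in replicate 1). These 2 libraries had similar shares with different leading members.

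Between batches, 6 members fell in batch 2 and 0 rose (edgeR's quasi-likelihood test with batch and group as terms, adjusted over all 6779 genes tested at a threshold of 0.05), while 6.99% of all genes tested fell. Counting without the threshold, 40 of the 44 were lower in batch 2 and 9.09% were higher, against 35.2% of all genes tested. Of those 40, 20 had an unadjusted p under 0.05 (45.5% of the 44, against 19.8% of all genes tested in either direction). The median log2 fold change was -1.67, against -0.39 over all genes tested, and was alike in the large (-1.69) and the small subunit (-1.54). The 4 members not lower in batch 2 were Mrpl10 (0.75 on the log2 scale), Mrps5 (0.42), Mrpl1 (0.25) and Mrpl47 (0.08), none past the threshold. Other tools called more members: DESeq2 17, all lower, where it called 13% of genes lower, and limma voom with sample weights 18, where it called 11.6% lower. All 6 of the members called by edgeR were among those of DESeq2, and 5 among those of voom. The batch is a label only, and what differed between the batches in preparation is not given in the sources used here.

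Of the small subunit, Mrps28, Mrps21 and Mrps14 fell. Mrps28 ran from 4.42 to 169 CPM in batch 1 (median 35.4, 12 libraries) and from 0 to 15.2 in batch 2 (median 0). In batch 2, 9 of the 12 libraries had no count, and its 84 counts there all lay in WT lung libraries. The log2 fold change was -7.04 ± 1.32 (SE, adjusted p 8.83e-05). Its size differed between tools, at -7.02 with DESeq2 and -3.46 with voom. Mrps21 ran from 20.6 to 266 CPM in batch 1 (median 138) and from 0 to 40.5 in batch 2 (median 6.78, 4 libraries at 0). Its log2 fold change was -4.18 ± 0.80 (adjusted p 1.35e-04), and the batches overlapped between 20.6 and 40.5 CPM. Mrps14, with a counterpart in bacterial ribosomes, ran from 8.41 to 651 CPM in batch 1 (median 62.0) and from 0 to 170 in batch 2 (median 20.3). Its difference was -2.76 ± 0.88 (adjusted p 0.0407), and it lost the call when any 1 of 13 libraries was left out, with relative log expression factors (adjusted p 0.0522) and without the 2 libraries led by Chil3 (0.0517; range over all alternatives 0.00195 to 0.176).

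Of the large subunit, Mrpl33, Mrpl57 and Mrpl9 fell. Mrpl33, a short protein with a bacterial counterpart, ran from 49.6 to 669 CPM in batch 1 (median 164) and from 0 to 175 in batch 2 (median 30.3, 3 libraries at 0), a log2 fold change of -3.26 ± 0.77 (adjusted p 0.00549). Mrpl57, a protein found in mitochondrial but not bacterial ribosomes, ran from 5.91 to 194 CPM in batch 1 (median 39.0). In batch 2 it ran from 0 to 16.6 CPM (median 0, 7 libraries at 0), a difference of -4.81 ± 1.25 (adjusted p 0.00703). That difference was -4.68 with DESeq2 and -3.19 with voom. Mrpl9 ran from 8.84 to 771 CPM in batch 1 (median 64.4) and from 0 to 84.4 in batch 2 (median 27.8, 3 libraries at 0), with -2.55 ± 0.82 (adjusted p 0.0404). That call was near the threshold: it was lost when any 1 of 12 libraries was left out, while the log2 fold change stayed at -2.86 to -1.96. It was also lost with voom (adjusted p 0.165) and without the 2 libraries under 500000 counts (adjusted p 0.118; range over all alternatives 0.00188 to 0.165).

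**Figure D3:**
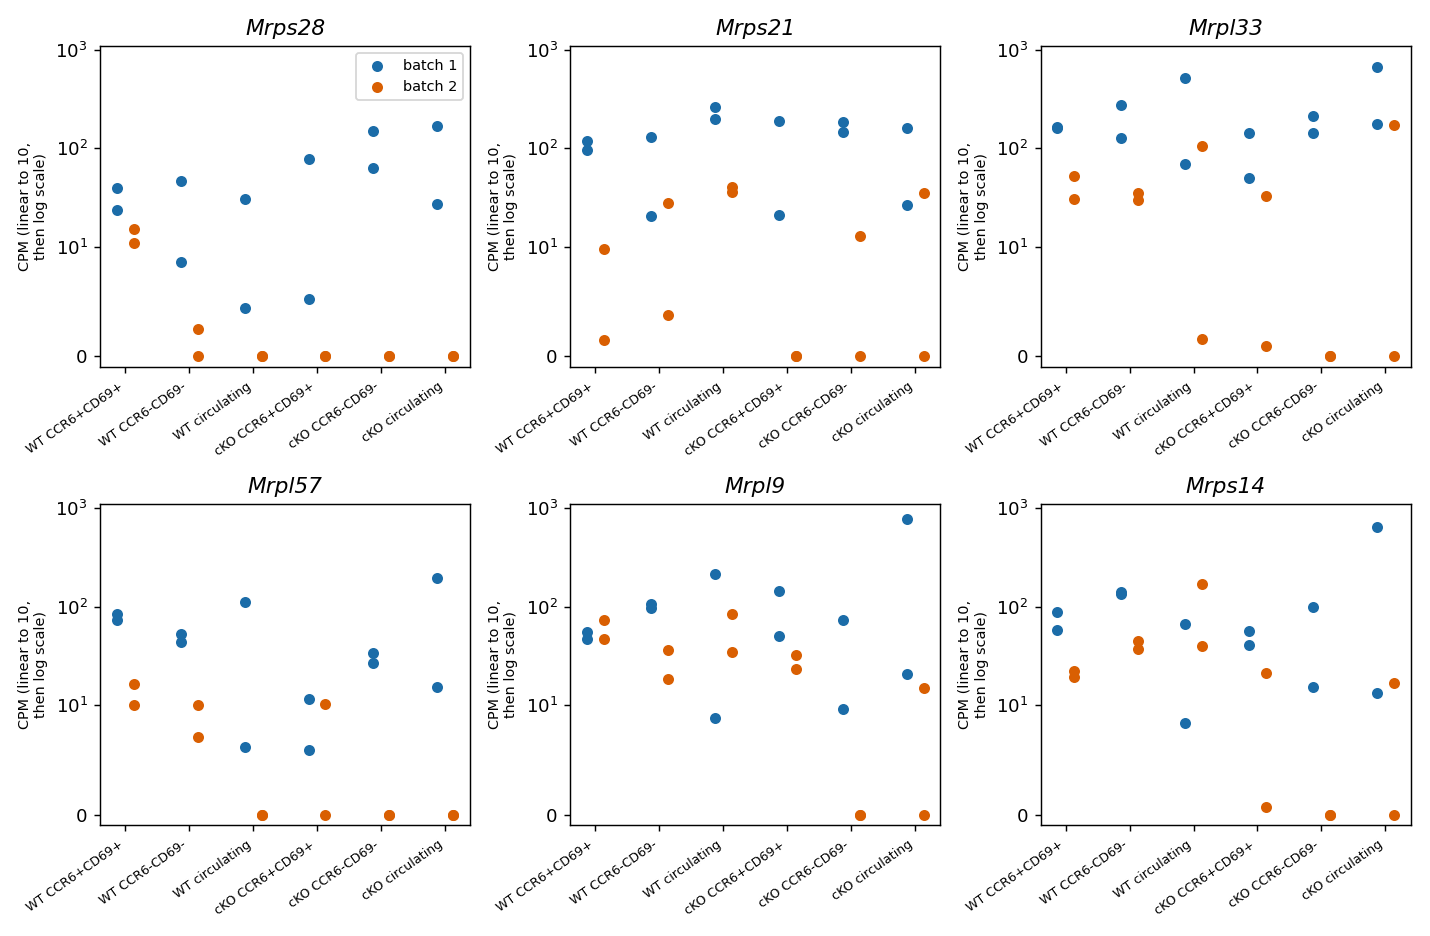
CPM of the 6 members that fell in batch 2, in each library by group (2 libraries per group and batch), on an axis that is linear to 10 CPM and logarithmic above. Batch 1 points mostly lie above batch 2 points of their group, and Mrps28 is at 0 in 9 of 12 libraries of batch 2.

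Members fixed for their role had negative values and did not pass edgeR's threshold, though DESeq2 and voom both called 3 of them lower (Mrpl12, Mrps18c and Mrps36). Mrpl12, of the stalk that recruits translation factors and a partner of the mitochondrial RNA polymerase, had a log2 fold change of -2.42 ± 1.07 (edgeR adjusted p 0.181; 0.0135 by DESeq2 and 0.0183 by voom, range over alternatives 0.0135 to 0.366). Mrps18c, a protein of which mammals carry several variants, had -2.79 ± 1.02 (adjusted p 0.0801; 0.00739 and 0.00362 by these tools, range 0.00362 to 0.219). Mrps36, now known as a subunit of the ketoglutarate dehydrogenase complex rather than of the ribosome, had -3.02 ± 1.29 (adjusted p 0.158; 0.00739 and 0.0213, range 0.00739 to 0.244). Mrpl45, which lies at the exit of the peptide tunnel near the inner membrane, had -1.20 ± 0.97 (0.541), and Mrpl44, related to RNase III, -0.38 ± 1.52 (0.925). The sign of Mrpl44 turned without the libraries led by Chil3 (0.11) and when any 1 of 5 libraries was left out (-1.87 to 0.24). For the most abundant members, Mrpl24 had -1.10 ± 0.49 (adjusted p 0.183; 0.0426 by voom, range 0.0426 to 0.453) and Mrps26 -1.76 ± 0.69 (adjusted p 0.117; 0.0365 by DESeq2, range 0.0365 to 0.343).

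Members are encoded by short transcripts, and the batch difference followed transcript length in genes generally. The median mature length (GENCODE M21) was 1273 bases over the members and 2773 over the genes tested, of which 95% had a length. Across the 44 members, Spearman's rho between length and the batch log2 fold change was 0.43, and across all 6438 genes with a length 0.48; with coding length it was 0.58 and 0.42. These are descriptions across genes that share the same libraries. In classes of length, members up to 700 bases (8) had a median of -3.00, where genes outside the family had -2.90. From 700 to 1000 bases (6 members) the medians were -2.10 and -1.74, and from 1000 to 1500 bases (14 members) -1.39 and -1.27. Longer members were below the genes of their class: -2.06 against -0.73 from 1500 to 2000 bases (4 members), -1.20 against -0.43 to 3000 bases (5) and -1.23 against -0.08 to 5000 bases (7). No test was made of these differences. The part of transcript length in the batch difference was not tested.

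**Figure D4:**
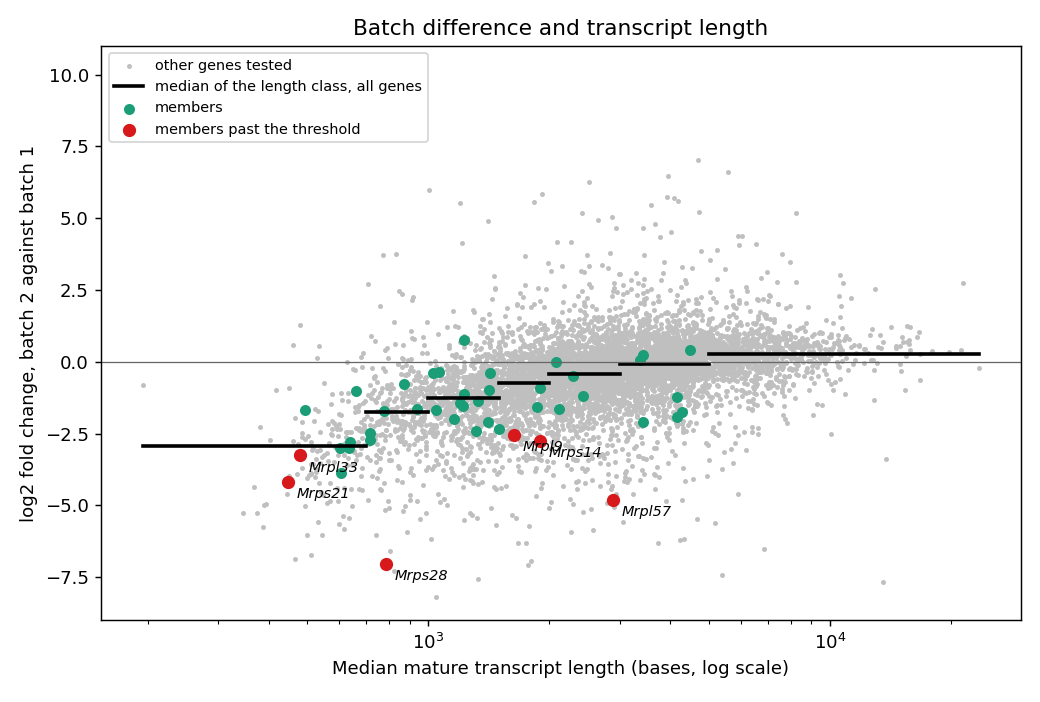
Batch 2 against batch 1 log2 fold change of each gene against its median mature transcript length in bases (log axis): grey, genes outside the family; green, members; red, the 6 members past the threshold; black bars, the median of all genes in each length class. The class medians go from -2.93 for transcripts up to 700 bases to 0.26 above 5000 bases, and 40 of 44 members lie below 0. Of all genes tested, 35.2% were higher in batch 2.

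Between populations of WT cells, 0 members passed the threshold in any of the 3 pairs. For lung CCR6+CD69+ against lung CCR6-CD69- the count at an unadjusted p under 0.05 was 1 and DESeq2 and voom called 0, with 0.295% of genes called by edgeR. The members' median log2 fold change was -0.01, against -0.02 over all genes. For lung CCR6+CD69+ against circulating (1.18% of genes called) it was -0.07 against 0.09 (0.64 from batch 1 alone, -0.23 from batch 2 alone and 0.82 with voom), with 1 member at an unadjusted p under 0.05, 1 called by DESeq2 (4.27% of genes called) and 0 by voom. For lung CCR6-CD69- against circulating (0.177% called) it was -0.19 against 0.12 (0.26 and -0.20 from the batches alone, 0.63 with voom), with 2, 1 (1.92% called) and 0. By edgeR, unadjusted p was under 0.05 for 2.27, 2.27 and 4.55% of members in these pairs. Over all genes tested the shares were 3.33, 11.6 and 8.63%. The all-gene medians against circulating were 0.24 and 0.21 from batch 1 alone, and 0.09 for each pair from batch 2 alone. Median standard errors of a member were 1.45 in each pair, so a difference of several fold in 1 member would not have been detectable. Larger ones could also be missed. Mrps28, at a fitted log2 fold change of 5.93 in lung CCR6+CD69+ against circulating, did not pass by edgeR (adjusted p 0.163). Its mean was 22.5 against 8.81 CPM over the 4 libraries. By batch it was 31.8 against 17.6 CPM (batch 1) and 13.1 against 0 CPM (batch 2), and fitted sizes with such zeros are uncertain.

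Named by the smallest p in each direction, Mrps28 stood at 23.7, 39.9, 11.1 and 15.2 CPM (WT lung CCR6+CD69+), 8.58, 47.1, 2.54 and 0 CPM (lung CCR6-CD69-) and 4.42, 30.8, 0 and 0 CPM (circulating). Its log2 fold change for lung CCR6+CD69+ was 3.47 ± 1.68 over lung CCR6-CD69- (adjusted p 1) and 5.93 ± 1.94 over circulating (adjusted p 0.163; 0.00966 by DESeq2, range over alternatives 0.00966 to 0.996). The groups overlapped in both comparisons. Mrps21 in WT circulating stood at 266, 199, 40.5 and 35.9 CPM and in lung CCR6+CD69+ at 119, 95.7, 1.45 and 9.76 CPM, higher in circulating within each batch, and the fold was -2.10 ± 1.21 (adjusted p 0.577). Mrps17, whose bacterial counterpart binds early to the small subunit's RNA, stood at 91.8, 80.9, 55.2 and 62.0 CPM in WT lung CCR6-CD69-, while circulating cells had 7.96, 0, 11.4 and 15.6 CPM. These 2 groups did not overlap, and with 2.76 ± 1.14 the adjusted p was 0.458 (0.0342 by DESeq2, range over alternatives 0.0342 to 1). Since members here and below were named for their smallest p, a lack of overlap is not a separate result. Mrpl44 (0 to 20.5 CPM in lung CCR6+CD69+, 9.64 to 50.03 in lung CCR6-CD69-) and Mrps15 (25.97 to 64.8 CPM in lung CCR6-CD69-, 28.0 to 301 in circulating) had the smallest p of the other direction, with log2 fold changes of -2.03 ± 1.72 (adjusted p 1) and -1.41 ± 1.14 (0.981).

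Between populations of cells labelled cKO, 0 members passed the threshold by edgeR or voom in each of the 3 pairs. For lung CCR6+CD69+ against lung CCR6-CD69- (0.457% of genes called) the members' median was 0.56, against 0.26 over all genes, with 1 member at an unadjusted p under 0.05 and 1 called by DESeq2 (5.22% called). Batch 1 alone gave -0.48, and batch 2 alone 2.84 (-1.37e-04 and 0.97 over all genes). For lung CCR6+CD69+ against circulating (1.53% called) it was -0.35 against -0.01, with 4 members at that p and 1 by DESeq2 (7.49% called). For lung CCR6-CD69- against circulating (0.31% called) it was -0.82 against -0.26, with 3 and 1 (8.15% called), and without cKO circulating replicate 1 it was 0.064. By edgeR, unadjusted p was under 0.05 for 2.27, 9.09 and 6.82% of members in these pairs. Over all genes tested the shares were 11.8, 12.8 and 14.2%. In batch 2, 23 of 44 members had no count in either cKO lung CCR6-CD69- library, so that fitted values there depend on the prior count. With such members set to the limit of 3 counts over the group, the batch 2 median for lung CCR6+CD69+ against lung CCR6-CD69- was 2.21 over 42 members.

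Mrpl13, a large subunit protein with a bacterial counterpart, stood at 56.8, 56.2, 37.0 and 3.55 CPM in cKO lung CCR6+CD69+ and at 3.66, 2.95, 0 and 0 CPM in cKO lung CCR6-CD69-. The groups overlapped by 1 library each, at 3.55 and 3.66 CPM, and the log2 fold change was 4.45 ± 1.76 (adjusted p 0.321; 0.016 by DESeq2, range over alternatives 0.016 to 0.5). Mrpl16, near the peptidyl transferase centre, stood at 3.29, 6.27, 0 and 0 CPM in cKO circulating, 62.7, 45.4, 37.5 and 2.84 CPM in lung CCR6+CD69+, and 1.51, 157, 94.0 and 0 CPM in lung CCR6-CD69-. Its fold over circulating was 4.07 ± 1.83 (adjusted p 0.338) and 4.98 ± 1.92 (adjusted p 0.229; 0.0104 by DESeq2, range 0.0104 to 0.897). Mrpl34 stood at 7.55, 4.30, 0 and 0 CPM in cKO lung CCR6+CD69+ and at 3.29, 9.40, 0 and 89.8 CPM in circulating, so that its -5.93 ± 2.16 (adjusted p 0.214; 0.00348 by DESeq2, range 0.00348 to 0.98) rested on circulating replicate 4. Without that library it was -0.62. Mrpl9 stood at 73.5, 9.69, 0 and 0 CPM in cKO lung CCR6-CD69- and at 771, 20.9, 0 and 14.8 CPM in circulating, with -3.53 ± 1.29 (adjusted p 0.203), and without circulating replicate 1 its log2 fold change was 0.065. Mrpl47, at the exit of the peptide tunnel, stood at 1.31, 0.239, 0 and 9.59 CPM in lung CCR6+CD69+ and at 25.6, 9.69, 88.8 and 0 CPM in lung CCR6-CD69-, with -3.50 ± 1.99 (adjusted p 0.483).

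Averaged over genotypes, the comparison of the lung populations called 1.45% of genes and 0 members by edgeR, DESeq2 and voom, with 1 at an unadjusted p under 0.05. The members' median was 0.14, and so was that of all genes. Both lung populations against circulating called 4.45% of genes and 0 members by edgeR and voom, with 5 at that p and 1 by DESeq2 (Mrpl16; 11.2% of genes called). The members' median was -0.22 against 0.04. By edgeR, unadjusted p was under 0.05 for 2.27% of members and 9.79% of genes tested between the lung populations. Against circulating the shares were 11.4 and 17.9%. Mrpl16 (3.15 ± 1.25, adjusted p 0.143) passed the threshold without the 2 libraries under 500000 counts (adjusted p 0.0412; range over alternatives 0.00808 to 0.489), and Mrps14 (-1.87 ± 0.72, adjusted p 0.134) without cKO lung CCR6-CD69- replicate 1 (adjusted p 0.0402, range 0.0402 to 0.963); these 2 were named after their values were seen.

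Between genotypes, 0 members passed the threshold by edgeR in each of the 3 populations. In lung CCR6+CD69+, 0 members and 0% of genes were called by edgeR, and 2 members (4.55%, against 2.29% of genes) had an unadjusted p under 0.05. DESeq2 and voom also called 0, and the members' median cKO against WT was -0.23 (0.04 over all genes). In lung CCR6-CD69-, 0 members and 0% of genes were called, with 1 member at that p (2.27%, against 7.32% of genes). The other tools called 0. The median was -0.67 against -0.31. From batch 1 alone it was 0.11 (0.15 over all genes) and from batch 2 alone -5.40 (-1.15 over all genes). In batch 2, 23 members were at 0 in both cKO libraries, which detected 66.7 and 30.7% of all genes tested. With these members at the limit of 3 counts over the group, the members' batch 2 median was -2.31. In circulating cells, 0 members and 0% of genes were called by edgeR, with 6 members at that p (13.6%, against 10.2% of genes). DESeq2 called 2 (3.58% of genes called) and voom 0. The median was 0.18 against 0.16, but 1.34 from batch 1 alone and -1.11 from batch 2 alone (0.33 and -0.10 over all genes). In batch 2 it was -1.25 over the 41 members above that limit in at least 1 group, with members at 0 set to it. Averaged over populations, 0 members passed by edgeR or voom (0.118% of genes called). At an unadjusted p under 0.05 stood 2 (4.55%, against 7.41% of genes), and DESeq2 called 2 (1.18% called). The median was -0.22 against -0.06, but 0.21 from batch 1 alone and -2.70 from batch 2 alone (0.12 and -0.65 over all genes). The genotype difference did not differ past the threshold between populations for any member. The joint interaction test called 0 members and 0% of genes, with 4 members (9.09%, against 6.28% of genes) at an unadjusted p under 0.05. DESeq2 and voom called 0, and the smallest adjusted p by edgeR was 0.701 (Mrps28).

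**Figure D5:**
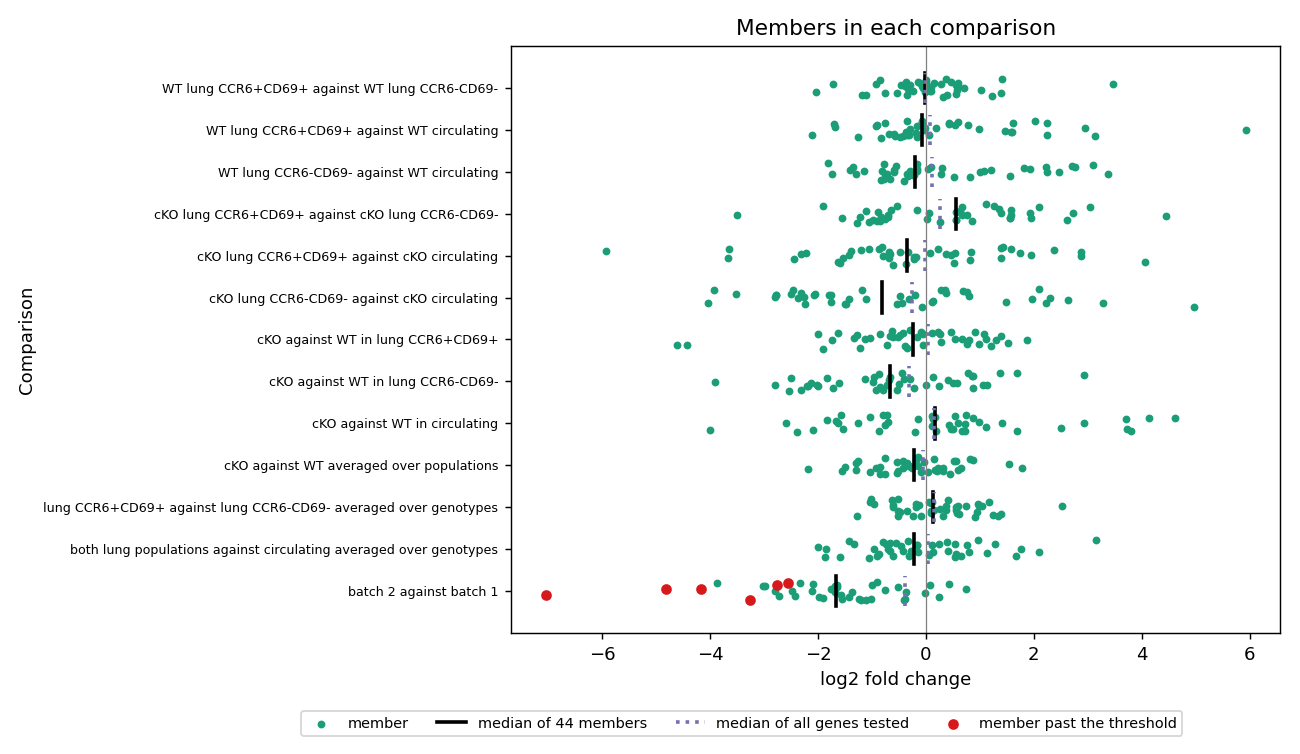
Log2 fold change of each of the 44 members (points, spread vertically for sight) in 13 comparisons fitted by edgeR, with the median of the members (black line) and of all genes tested (dotted line); red points passed the threshold. The batch comparison has 6 red points and a median of -1.67, while the other 12 have 0 red points and medians from -0.82 to 0.56.

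Mrps17 had the smallest p of the genotype comparison in circulating cells. It stood at 7.96, 0, 11.4 and 15.6 CPM in WT and at 13.2, 405, 80.4 and 97.0 CPM in cKO, which overlapped by 1 library each over the 4 but not within either batch. Its log2 fold change was 4.13 ± 1.23 (adjusted p 0.417; 2.68e-04 by DESeq2, range over alternatives 2.68e-04 to 1). In lung CCR6+CD69+, where it also had the smallest p of a rise, it stood at 48.9, 41.4, 21.2 and 20.6 CPM in WT and at 94.9, 67.9, 157 and 87.7 CPM in cKO. The groups did not overlap, and with 1.87 ± 1.10 the adjusted p was 1. Averaged over populations Mrps17 had 1.77 ± 0.63 (adjusted p 0.391; 0.028 by DESeq2, range 0.028 to 0.723), and Mrpl13 had -2.18 ± 0.91 (adjusted p 0.535; 0.0474 by DESeq2, range 0.0474 to 0.786). Mrpl54, a protein of mitochondrial ribosomes alone, stood at 180, 289, 75.0 and 0 CPM in WT circulating and at 13.2, 20.9, 0 and 0.478 CPM in cKO, with -4.00 ± 1.58 (adjusted p 0.419; 0.0438 by DESeq2, range 0.0438 to 1). Mrps28 in lung CCR6+CD69+ (values in WT above; 5.25, 78.2, 0 and 0 CPM in cKO) had -4.61 ± 1.84 (adjusted p 1), but 0.54 in batch 1 alone. In lung CCR6-CD69-, Mrpl13 stood at 6.81, 66.2, 22.8 and 15.9 CPM in WT and at 3.66, 2.95, 0 and 0 CPM in cKO, which did not overlap, with -3.91 ± 1.73 (adjusted p 0.617). Mrpl47 there (0 to 15.2 CPM in WT, 0 to 88.8 in cKO) had 2.93 ± 1.95 (adjusted p 0.818).

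For other genes of mitochondrial translation, edgeR called 0 on 4 lists between batches, where 6.99% of all genes tested fell, 35.2% were higher without regard to the threshold and the median was -0.39. Of 4 tested mitoribosome proteins under other symbols, 4 had an unadjusted p below 0.05, while 2 were called with DESeq2 and 3 with voom (median log2 fold change -2.45). Of 13 assembly factors, 3 were at that p, DESeq2 called 3 and voom 2 (median -1.01). Of 11 translation factors these counts were 0, 0 and 0 (median -0.54), and of 13 mitochondrial aminoacyl-tRNA synthetases, which charge the tRNAs, 1, 3 and 0 (median -0.27). The last 2 lists had medians near that of all genes. Of 10 tested genes of mitochondrial DNA expression 1 fell by edgeR, Slirp, a partner of the RNA-stabilising protein LRPPRC (-6.32 ± 1.08, adjusted p 1.57e-05). The mitochondrial 16S rRNA itself, mt-Rnr2, rose in batch 2 (0.76 ± 0.24, adjusted p 0.0376). Its batches overlapped, at 602 to 1643 CPM in batch 1 and 1171 to 6727 CPM in batch 2. The highest value was that of cKO lung CCR6-CD69- replicate 4 (129025 counts). Of 52 tested nuclear genes of the respiratory chain 35 fell (median -2.57), and of 53 tested cytosolic ribosomal protein genes 53 fell (median -2.65). Cytosolic ribosomal protein genes held 8.52 to 14.1% of a batch 1 library and 2.78 to 3.97% of a batch 2 library. Whether the members differ from these lists was not tested.

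Between lung and circulating cells, 1 of the 4 mitoribosome proteins under other symbols rose, Dap3, a GTP-binding protein of the small subunit. It stood at 77.5, 62.8, 30.0 and 28.6 CPM (WT lung CCR6+CD69+), 108, 51.5, 29.8 and 40.6 CPM (WT lung CCR6-CD69-), and 5.75, 0, 0.811 and 0 CPM (WT circulating), so WT lung and circulating did not overlap. In the labelled cKO it stood at 67.0, 18.9, 37.5 and 55.8 CPM, 31.9, 131, 0 and 7.75 CPM, and 14.2, 13.6, 0 and 0.478 CPM in the same order. For both lung populations against circulating the log2 fold change was 4.09 ± 1.11 (adjusted p 0.0165), and no other listed gene of mitochondrial translation passed in this comparison. Markers of other cells moved with this comparison, in which edgeR called 71 of 6779 genes higher and 231 lower in lung. Of 9 tested natural killer and T cell markers 7 fell in lung. Their summed share there was 0.00233 to 0.0558% of counts, against 0.122 to 0.397% in circulating libraries. Of 6 tested plasmacytoid dendritic cell markers 5 fell, at 0.138 to 0.562% against 0.482 to 0.766%. Of 2 tested plasma cell markers 2 fell, and of 13 macrophage and monocyte markers 1 fell. Of 5 granulocyte markers 0 were called, and of 5 B cell markers 1 rose and 0 fell. Nkg7 was at 281 to 1354 CPM in the circulating libraries and at 0 in 2 of 8 lung CCR6+CD69+ and 5 of 8 lung CCR6-CD69- libraries. The part of such cells in the Dap3 difference was not tested.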

How the data were processed

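Sequencing was of polyA RNA (Zymo microprep kit; xGen broad-range kit adapted to low input, per the labels' protocols). The deposited table holds raw counts, whole numbers for each gene symbol in 24 libraries, with no coordinates. FastQC, STAR, Salmon and build mm39 appear in the submitters' processing notes, and which tool made the counts is not given in the sources used here. Strandedness and the treatment of reads shared with pseudogenes are likewise not given, so members with copies elsewhere in the genome are uncertain.

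Counts were tested in R 4.3.3 with edgeR 4.0.16: TMM factors, filterByExpr by group (6779 of 18470 rows kept), a robust quasi-likelihood F-test on group and batch over all 24 libraries, and Benjamini-Hochberg adjustment over all genes tested at 0.05. The common dispersion was 1.20 (biological coefficient of variation 1.10). CPM are counts scaled to 1000000 per library over the rows analysed. The procedure was tested on simulated counts, drawn first with the common dispersion for every gene and then, in the version kept, with each gene's own. Sizes and signs were recovered in both, but with the common dispersion most genes given a large change were not called, so a member that did not pass may still differ. There were 14 comparisons, which share libraries.

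Alternatives were relative log expression factors, DESeq2 1.42.0, limma 3.58.1 voom with sample weights, no filter, a filter at 5 CPM in 4 libraries, immunoglobulin (73) or cytosolic ribosomal protein (55) rows left out, a fit without batch, fits within 1 batch or to the compared groups only, replicate blocks, and libraries left out (the 2 under 500000 counts, the 2 led by Chil3, and each in turn). Coding length in place of transcript length and the means without a member's highest library were chosen after seeing the data.

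Named members are those past the threshold, the one with the smallest p in each direction of the 9 comparisons of 2 groups, the 3 of each subunit with the highest mean CPM, and some fixed for their role. The members and gene lists were chosen with earlier results of these data known. Libraries of the 3 populations carry the same numbers within a genotype. Whether a shared number marks the same mouse is not given, and the main fit did not pair them. Some rows are not analysed here.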

Additional observations from a re-analysis of the deposited data

Results flagged for a closer look

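In groups of 4 libraries, a library was singled out where its gap to the nearest other exceeded Dixon's 95% critical value of the group's range. Of 54 such groups examined, 11 gave a flag. Chance gives about 1 in 20 for 4 libraries of 1 kind, a rate that is no yardstick here, since each group held 2 libraries of each batch and the members examined were chosen as lower in batch 2. Among WT lung CCR6+CD69+ libraries 1 detected 41 members where the others detected 44. For Mrps28 the highest library stood apart in WT circulating (30.8 CPM), in cKO lung CCR6+CD69+ (78.2 CPM) and in cKO circulating (169 CPM). For Mrps21 it did so in cKO lung CCR6+CD69+ (190 CPM), and for Mrpl57 in WT circulating (112 CPM) and cKO circulating (194 CPM). For Mrpl9 it did so in cKO lung CCR6-CD69- (73.5 CPM) and cKO circulating (771 CPM), and for Mrps14 in the same groups (100 CPM and 651 CPM). In all 10 flags of single members the library that stood apart was of batch 1.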

How the results depend on the processing

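The number of members past the threshold rose from 0 to 1 with DESeq2 in WT lung CCR6+CD69+ against circulating, WT lung CCR6-CD69- against circulating, the 3 cKO population pairs and both lung populations against circulating, and to 2 for the genotype in circulating cells and averaged over populations; between batches it was 17 with DESeq2 and 18 with voom. For lung against circulating it was 1 without the libraries under 500000 counts and 0 to 1 with each library left out. Medians moved beyond the residual spread of the members' score as follows. With voom they were 0.82 and 0.63 for the WT lung populations against circulating and 0.45 for both. In batch 1 alone they were 0.64 for WT lung CCR6+CD69+ against circulating, -0.48 for the cKO lung pair, and 0.11 and 1.34 for the genotype in lung CCR6-CD69- and circulating cells. All genes had 0.24, -1.37e-04, 0.15 and 0.33 in that order. In batch 2 alone the members' medians were 2.84 for the cKO lung pair, 0.69 for cKO lung CCR6+CD69+ against circulating, -5.40, -1.11 and -2.70 for the genotype in lung CCR6-CD69-, in circulating cells and averaged, and 1.70 for the lung pair averaged. There all genes had 0.97, 0.29, -1.15, -0.10, -0.65 and 0.53. Without the batch term the members' median for the cKO lung pair was -0.12. For cKO lung CCR6-CD69- against circulating and for the genotype in lung CCR6-CD69- the members' medians were -1.59 and -1.48 with only the groups compared, and -1.46 and -1.45 without the libraries led by Chil3. With each library left out the former ranged from -1.46 (without cKO lung CCR6-CD69- replicate 1) to 0.064 (without cKO circulating replicate 1). Signs turned for Mrps28 in the genotype comparison of lung CCR6+CD69+ (0.064 without the batch term, 0.54 in batch 1 alone) and for Mrpl44 between batches (0.11 without the libraries led by Chil3, and -1.87 to 0.24 with each library left out). They also turned for Mrps5 between batches (-0.050 to 0.64) and Mrpl9 in cKO lung CCR6-CD69- against circulating (-5.75 to 0.065). The cause was not tested. The batch median kept its sign with each library left out (-1.83 to -1.47), with 4 to 8 members called.

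Of 12 pairs of same-numbered libraries, 1 had a correlation of deviations over 0.1 (-0.03 to 0.171). Each deviation rests on the 2 libraries of a group in a batch, so these values cannot decide whether libraries were paired. With the replicate number as a block, 0 members were called in each comparison between groups, and the median for both lung populations against circulating was 0.026. Depth set a limit of up to 23.3 CPM for 3 counts. Its part in the zeros was not tested. Batch 2 libraries of 2092658 and 1329109 counts detected 22 and 18 members, and a batch 1 library of 957610 counts detected 44. Of all genes tested, these libraries detected 65.8, 66.7 and 94.6%. The shallowest library of batch 1 (356782 counts) detected 25 members and that of batch 2 (129025 counts) 5.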
